A study of Rattus norvegicus with 84 samples.

Results

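The nucleus accumbens shell was set against the nucleus accumbens core in the F series of rat libraries, the only series here that holds both subregions. The members were all libraries whose title number ends in F: 12 Shell libraries and 11 Core libraries, 23 of the 84 libraries of the study. The members were chosen by title number and, for the Core library 17-F alone, selected on a measured value: it was left out because nearly all of its counts were background. The subregion of each library came from its title. The rats were wild-type Long-Evans, an outbred strain. Shell libraries were 2 each of Ext_Coc, HC_Coc, Ctx_Coc, Ext_Sal, HC_Sal and Ctx_Sal, and Core libraries were the same except for 1 Ctx_Coc library. Coc is cocaine and Ext is extinction in the study's terms. The labels do not spell out Sal, HC and Ctx, which in this field commonly stand for saline, home cage and context. The study is on cocaine withdrawal and extinction, and the age, sex, dissection and pooling of animals are not in the labels. Whether the libraries came from separate rats is not stated, and p-values here cover only the spread among libraries, which may be technical in part. The question was which genes differ between the subregions once condition and drug are taken into account.

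The accumbens is the ventral part of the striatum. Most of its neurons are GABAergic projection neurons of a D1 type, with the dopamine receptor Drd1 and the peptides dynorphin and substance P, and of a D2 type, with Drd2, an adenosine receptor, Adora2a, and enkephalin. Sparse cholinergic and GABAergic interneurons lie among them. The core surrounds the anterior commissure, a bundle of myelinated axons, and resembles the dorsal striatum in its connections, whereas the shell lies medially and ventrally, near the septum and the ventral pallidum, and is tied to hypothalamic and limbic circuits. In many species the calcium-binding protein calbindin marks the core and the dopamine D3 receptor is rich in the shell.

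The libraries were made from total RNA with a stranded kit for low input and held 13.9 to 22.1 M (mega) counts in Shell and 14.1 to 22.5 M in Core. Levels are given as CPM, the counts of a gene per M counts of the library after scaling, and differences as log2 fold changes of Shell minus Core with their standard error (SE). Olfactory and vomeronasal receptor genes, which brain tissue scarcely expresses, gave a measure of background: their counts per base, spread over all gene bodies, were taken as the background share of a library. That share had a lowest, median and highest value of 2.26%, 21.2% and 55.2% in Shell libraries, against 1.69%, 3.48% and 34.1% in Core libraries. The ranges overlapped, but in 8 of 11 consecutively numbered pairs the Shell library had the higher background. In Core the share also moved with drug, with a median of 2.63% in 5 Coc libraries and 13.5% in 6 Sal libraries, and the 3 Core libraries of high background (7-F, 11-F and 23-F) were all Sal. In Shell the medians were 23.7% in 6 Coc and 18.2% in 6 Sal libraries, and 6-F and 24-F were low. In 17-F the estimate was 101%. The genes below were therefore also fitted in 5 further ways: with the library number pairs as a block, with background as a covariate, with both, with the background subtracted, and in the 10 Shell and 8 Core libraries whose background lay in the range that both subregions share. Not all named genes had enough counts to be tested after subtraction. Whether strand was used in counting is not known, so overlapping genes cannot be told apart, and expected background (at the median) is printed for each named gene where it is at least 50% of the level in Shell or in Core. The share of mitochondrial mRNA had a median of 2.16% in Shell and 2.71% in Core, and its part in the results was not tested.

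**Figure D1:**
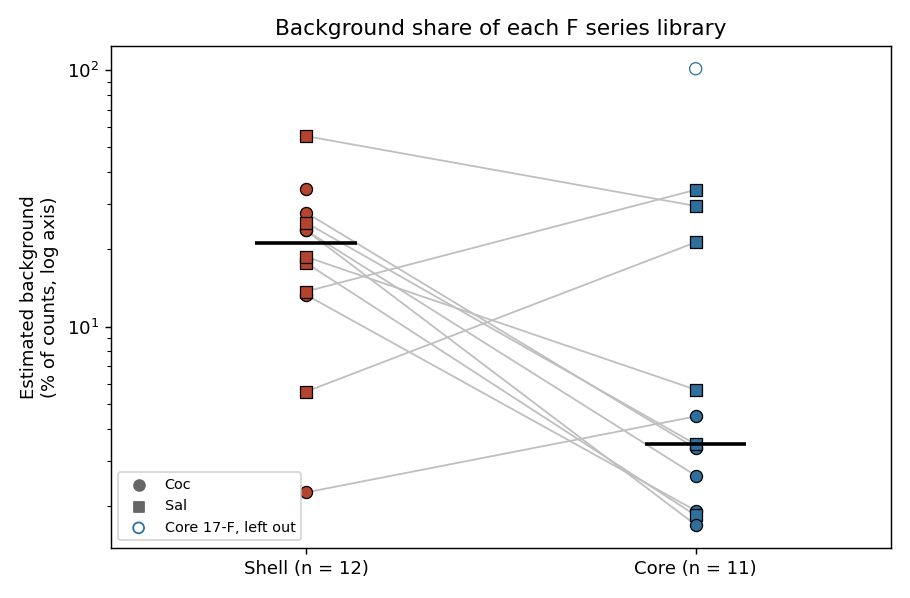
Estimated background (percent of counts, log axis) in each F series library, Shell left and Core right, with lines joining consecutively numbered libraries, bars at the medians and drug given by the marker. Most Shell libraries lie above most Core libraries (medians 21.2% and 3.48%), with exceptions on both sides, and the open circle is Core 17-F at 101%.

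More genes were lower than higher in Shell. Of 27899 genes tested, 587 were higher (2.1%) and 1387 lower (4.97%) in Shell than in Core at an adjusted p under 0.05 (edgeR's quasi-likelihood test with condition and drug as covariates, two-sided, Benjamini-Hochberg over all genes), 7.08% in all. The median log2 fold change of all genes tested was 0.105, and receptor genes, whose counts are background, had a median of 1.37 over the 164 tested, with 3 called higher and 0 lower. The 80 cytosolic ribosomal protein genes tested had a median of -0.65, with 0 called higher and 7 lower. With the pairs as a block 237 genes were higher (0.849%) and 523 lower (1.87%), 2.72% in all, and with background as a covariate 1809 were higher (6.48%) and 895 lower (3.21%), 9.69% in all, so the share of higher among called genes was 29.7%, 31.2% and 66.9% in these 3 fits. After subtraction of the background 731 genes were higher and 1457 lower, of only 20770 tested. With pairs and covariate together 863 were higher and 616 lower of 27899, and in the shared background range 124 and 302 of 28349. In all 6 fits, 74 genes were called higher (0.265%) and 268 lower (0.961%). The levels of 44 genes (0.158%) lay higher in every Shell library than in any Core library, and those of 63 genes (0.226%) lay lower. All 44 and all 63 were among the calls. The count of calls rested on single libraries: it was 13096 without Core 11-F, 12142 without Core 7-F, 11655 without Shell 24-F, 5748 without Shell 6-F and 3795 without Core 23-F, the libraries whose background was unusual for their subregion. It was 1120 to 1314 without any 1 of the other 8 Core libraries and 1250 without Shell 10-F. DESeq2's Wald test called 9664.

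Myelin genes, which oligodendrocytes use to wrap axons, were lower in Shell. Each of the 14 listed genes passed as lower; their log2 fold changes had a median of -2.04 and ran from -2.33 to -0.93, and all 14 passed as lower in each of the 6 fits. Mobp, a structural protein of compact myelin, had a lowest, median and highest level of 115, 259.9 and 518 CPM in Shell libraries, against 535, 1573 and 1922 CPM in Core libraries. No Shell library reached the lowest Core library, 11-F, and the 3 lowest Core libraries were those of high background. The difference was -2.33 ± 0.28 (SE), 5.01-fold lower in Shell, with adjusted p = 2.46e-05 (edgeR), and Mobp was lower in Shell in 11 of 11 pairs. Mbp, which holds the layers of the myelin membrane together, stood at 164, 336 and 658 CPM in Shell and at 623, 1649 and 2538 CPM in Core. Of the 12 Shell libraries, 11 lay below every Core library for Mbp, and the log2 fold change was -2.17 ± 0.26. Ermn, Mal, Opalin and the tight junction gene Cldn11 lay between -2.15 and -2.05 (log2).

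The list also holds enzymes. Fa2h, which hydroxylates the fatty acids of myelin lipids, had 20.2, 23.5 and 26.7 CPM in Shell and 34.4, 56.4 and 74.8 CPM in Core, without overlap (-1.19 ± 0.11, adjusted p = 1.54e-06, edgeR). Ugt8, which makes galactocerebroside, changed by -1.74 ± 0.20, and Aspa, which splits N-acetylaspartate, by -0.93 ± 0.11, with an expected background of 7.81 of 15.5 CPM in Shell and 2.1 of 30.9 CPM in Core. Tf, which encodes transferrin and is made by oligodendrocytes in the brain, was among the 10 largest decreases at -2.07 ± 0.26. The size of the myelin difference moved with background: Mobp was at -1.59 with background as a covariate, -1.73 between the 2 Shell and 8 Core libraries of low background (adjusted p = 0.00211, edgeR) and -1.41 between the 10 Shell and 3 Core libraries of high background (adjusted p = 0.11, edgeR). In a bulk sample, fewer cells of a type and less RNA per cell cannot be told apart.

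The 250 bases before the start of 3 genes of the myelin list are shown because they are among the 10 largest decreases and each has a single promoter in the table used. Sequences are from RefSeq on GRCr8, another build than that of the counts, and capitals mark matches to the core motif of SOX factors, to which the oligodendrocyte regulator Sox10 belongs (ACAAAG or ACAATG, on either strand). Mobp lies at chr8:128746982-128747231, plus strand, Opalin at chr1:249858191-249858440, minus strand, and Mal at chr3:135341424-135341673, minus strand.
Mobp: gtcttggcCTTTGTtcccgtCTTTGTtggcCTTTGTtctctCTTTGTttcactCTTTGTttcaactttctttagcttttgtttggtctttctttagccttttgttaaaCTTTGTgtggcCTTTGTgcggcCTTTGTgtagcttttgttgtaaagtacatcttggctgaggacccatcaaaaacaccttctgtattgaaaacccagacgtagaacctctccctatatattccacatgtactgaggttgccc
Opalin: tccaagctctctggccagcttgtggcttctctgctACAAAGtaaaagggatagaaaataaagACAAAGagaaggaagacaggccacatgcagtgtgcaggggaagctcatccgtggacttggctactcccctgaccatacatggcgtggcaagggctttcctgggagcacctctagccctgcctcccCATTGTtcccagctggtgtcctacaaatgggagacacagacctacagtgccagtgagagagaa
Mal: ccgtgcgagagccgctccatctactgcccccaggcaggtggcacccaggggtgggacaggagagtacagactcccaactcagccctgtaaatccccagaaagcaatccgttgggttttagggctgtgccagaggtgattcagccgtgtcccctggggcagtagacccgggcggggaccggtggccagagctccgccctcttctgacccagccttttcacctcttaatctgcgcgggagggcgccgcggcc
The Mobp window held 8 matches, the Opalin window 3 and the Mal window 0. Of the 10 myelin genes with a single promoter, 5 had a match (50%), and 25.3% of all 33469 promoters of this length had 1. A match is a run of letters and not a site shown to be bound.

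Genes of the earlier oligodendrocyte lineage were lower as well, though less so. Of 9 members, 7 passed as lower and 0 as higher, with a median of -0.71, while 5 passed with the pairs as a block and 3 in all 6 fits. Sox10, the transcription factor of the whole lineage, had 9.53, 20.4 and 39.1 CPM in Shell and 27.7, 80.9 and 99.5 CPM in Core (-1.66 ± 0.24, adjusted p = 0.000135, edgeR). Olig1, a second lineage factor, changed by -1.47 ± 0.27, Gpr17, a receptor of cells about to differentiate, by -1.21 ± 0.25, and the growth factor Bmp4 by -0.71 ± 0.13, with an expected background of 2.18 of 3.93 CPM in Shell and 0.586 of 6.38 CPM in Core.

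Astrocyte genes went in both directions. Of 16 members 3 were higher and 2 lower, with a median of -0.39, which was 0.19 with background as a covariate (6 higher and 2 lower). Gfap, the intermediate filament that is rich in astrocytes of fibre tracts, had 12.2, 18.9 and 31.4 CPM in Shell and 45.2, 101 and 140.5 CPM in Core, without overlap. It was 4.95-fold lower in Shell (-2.31 ± 0.20, adjusted p = 1.42e-06, edgeR), passed in all 6 fits, and stood at -1.92 in the libraries of low background and at -1.48 in those of high background, both past the threshold (adjusted p = 0.00211 and 0.0333, edgeR). Slc25a18, a mitochondrial glutamate carrier of astrocytes, went the other way with 10.8, 15.0 and 22.2 CPM in Shell and 4.6, 7.77 and 9.33 CPM in Core (1.07 ± 0.13, adjusted p = 3.71e-05, edgeR). Its ranges did not overlap either.

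Kcnj16, a subunit of inwardly rectifying potassium channels that pairs with Kcnj10 in astrocytes, had 6.43, 10.5 and 18.8 CPM in Shell and 0.829, 3.88 and 6.07 CPM in Core (1.54 ± 0.24, adjusted p = 0.00036, edgeR). It was higher in 11 of 11 pairs, and both Kcnj16 and Slc25a18 passed in all 6 fits. The water channel Aqp4 had 44.9, 71.1 and 123 CPM in Shell and 81.5, 215 and 239.6 CPM in Core, with overlap. Its difference of -1.19 ± 0.22 was -0.50 with background as a covariate, past the threshold in both. Cryab, a small heat shock protein made mostly by oligodendrocytes and astrocytes, was the second largest decrease, with 4.20, 5.78 and 12.1 CPM in Shell and 14.5, 39.1 and 52.4 CPM in Core, without overlap (-2.40 ± 0.21, adjusted p = 1.42e-06, edgeR). It was the only 1 of 9 heat shock genes to pass.

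Of 12 microglial genes 3 passed as lower: Csf1r, the receptor on which microglia depend, at -0.45 ± 0.10, Aif1 at -0.63 ± 0.17 and the complement gene C1qa at -0.70 ± 0.20. None of the 12 passed with the pairs as a block, where adjusted p was 0.0771, 0.0988 and 0.0738 for these genes (edgeR).

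**Figure D2:**
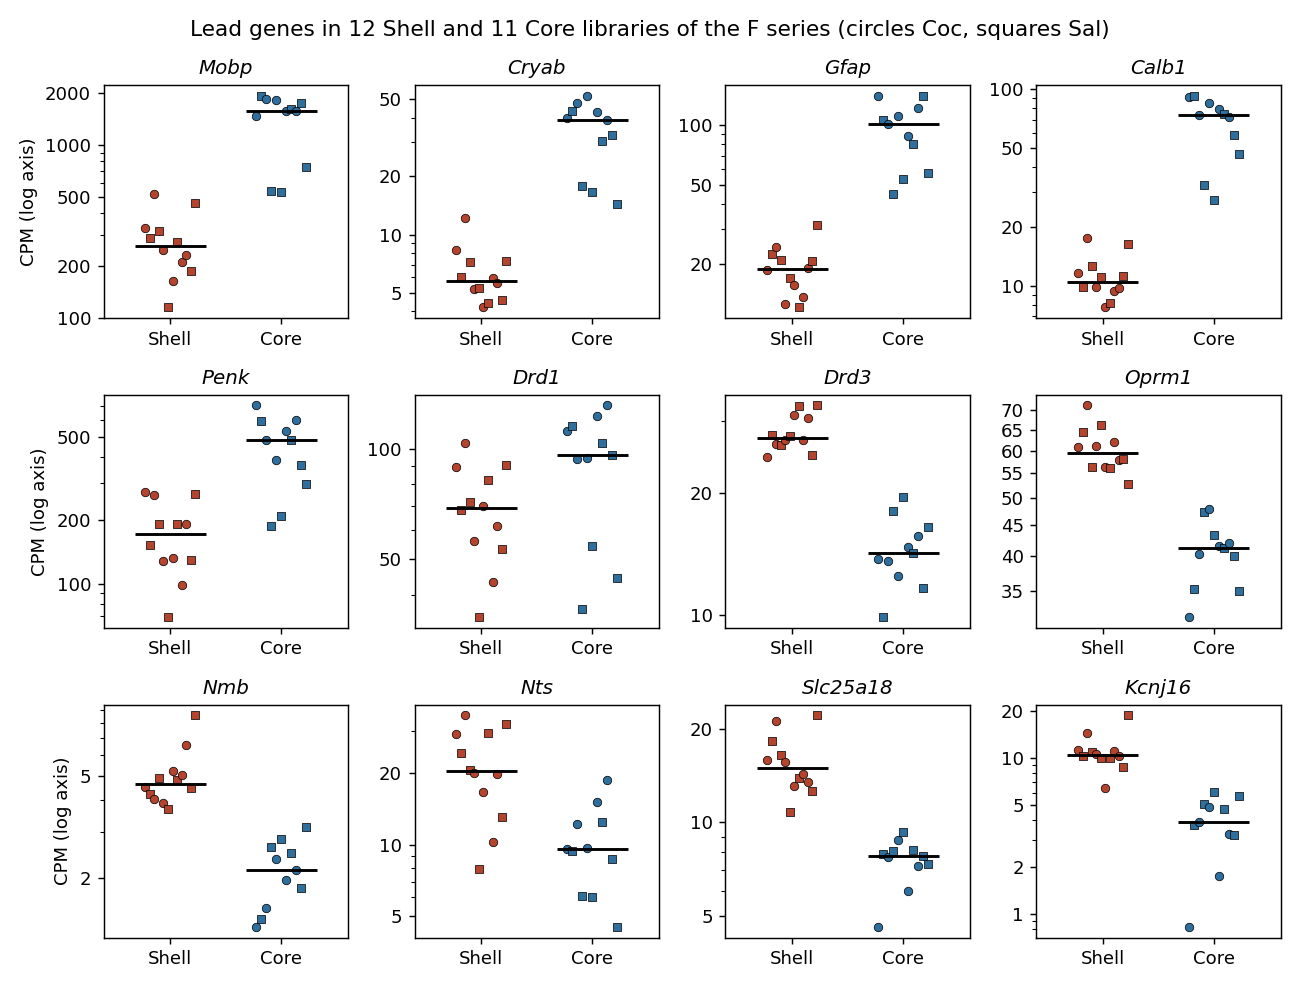
Level of 12 genes (CPM, log axis) in each of 12 Shell libraries (left) and 11 Core libraries (right) of the F series, with bars at the medians and circles for Coc and squares for Sal. Mobp, Cryab, Gfap and Calb1 are lower in all Shell libraries than in any Core library, Drd3, Oprm1, Nmb, Slc25a18 and Kcnj16 are higher, and Drd1, Penk and Nts overlap.

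Both dopamine receptors that define the projection neurons were well expressed in both subregions, and neither passed. Drd1 had 34.8, 69.0 and 103 CPM in Shell and 36.5, 96.2 and 131 CPM in Core, and its difference of -0.41 ± 0.21 did not pass (adjusted p = 0.124, edgeR; 0.22 with background as a covariate, also not past). Drd2 had 64.0, 123 and 232 CPM in Shell and 83.5, 221 and 292 CPM in Core (-0.45 ± 0.21, adjusted p = 0.105, edgeR; 0.16 with the covariate). The sign of both thus turned with the treatment of background. Of 8 D1-type markers 0 passed (median -0.0015), and with background as a covariate 3 passed as higher.

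Among the 6 D2-type markers 3 passed as lower (median -0.705). With the pairs as a block 2 passed, and with background as a covariate 2 passed (median -0.154). After subtraction of the background 3 passed, but 0 did so in the shared background range or in all 6 fits. Penk, the enkephalin precursor, had 69.3, 173 and 273 CPM in Shell and 188, 480.2 and 705 CPM in Core. The ranges overlapped, and Penk was lower in Shell in 10 of 11 pairs (-1.33 ± 0.25, adjusted p = 0.002, edgeR). Its difference was -0.69 with background as a covariate (adjusted p = 0.00248, edgeR), and it did not pass in the shared background range (adjusted p = 0.053, edgeR). Adora2a, an adenosine receptor, changed by -0.75 ± 0.17, and the orphan receptor Gpr52 by -0.80 ± 0.20 (adjusted p = 0.0688 with the pairs as a block, edgeR). Adora2a and Gpr52 both stood at -0.27 with background as a covariate. Of 16 genes that all striatal projection neurons use, 3 passed as lower, but 0 did so with the pairs as a block. Their median was -0.54, against -0.65 for the ribosomal protein genes. With background as a covariate 4 passed as higher and 0 as lower (median 0.11), and after subtraction of the background 0 were higher and 4 lower. The 3 first called lower were Ppp1r1b, which encodes the dopamine-regulated phosphatase inhibitor DARPP-32, at -0.90 ± 0.27, Arpp21 at -0.87 ± 0.22 and the phosphodiesterase Pde7b at -0.75 ± 0.19. With background as a covariate they stood at -0.21, -0.21 and -0.18, none past the threshold. Their adjusted p with the pairs as a block was 0.0665, 0.0681 and 0.0948 (edgeR).

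The striatum is divided into striosomes and a surrounding matrix, each with its own marker genes. Of 6 matrix genes 5 passed as lower and 0 as higher (median -0.79), and of 7 striosome genes 3 passed as higher and 0 as lower (median 0.30). With background as a covariate 2 matrix genes were lower, and 3 striosome genes were higher and 1 lower. After subtraction of the background 5 matrix genes were lower, and 2 striosome genes were higher and 1 lower. In all 6 fits 1 matrix gene was lower and 1 striosome gene higher, and in the numbered series the striosome median was 0.04 (2 higher and 1 lower). The largest decrease among the named genes was that of Calb1, the calbindin gene: 7.74, 10.4 and 17.4 CPM in Shell and 27.3, 73.8 and 93.0 CPM in Core, 5.89-fold lower (-2.56 ± 0.21, adjusted p = 1.31e-06, edgeR). The ranges lay far apart, and Calb1 passed at -2.04 in libraries of low background and at -1.74 in those of high background (adjusted p = 0.0021 and 0.0104, edgeR). The thyroid hormone-binding protein Crym changed by -1.01 ± 0.20, the vesicle protein Sv2b by -0.49 ± 0.11 and the guanine deaminase Gda by -0.70 ± 0.20. With the pairs as a block 3 of the 6 passed, and Gda did not (adjusted p = 0.0977, edgeR).

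Oprm1, the mu-opioid receptor that defines striosomes, had 52.7, 59.4 and 71.4 CPM in Shell and 31.6, 41.3 and 47.9 CPM in Core, without overlap (0.58 ± 0.08, adjusted p = 6.74e-05, edgeR). Its expected background was 36.9 CPM in Shell and 9.93 CPM in Core at the median. After subtraction of the background its difference was 0.52 and did not pass (adjusted p = 0.608, edgeR), while it passed in the other 4 further fits. Spon1, a secreted matrix protein, had 144, 172 and 191 CPM in Shell and 106, 119 and 132 CPM in Core (0.49 ± 0.06) and passed in all 6. The potassium channel partner Kcnip1 was at 0.47 ± 0.13, with adjusted p = 0.0772 with the pairs as a block (edgeR).

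Cholinergic interneuron genes were higher in Shell. All 6 members passed (median 0.71), of which 2 did so with the pairs as a block and 4 with background as a covariate. Lhx8, the transcription factor that directs the cholinergic fate, had 8.59, 12.5 and 21.7 CPM in Shell and 5.05, 6.96 and 9.37 CPM in Core (0.95 ± 0.17, adjusted p = 0.00124, edgeR), and 9 of 12 Shell libraries lay above every Core library. Gbx2, a homeobox gene of developing cholinergic cells, had 1.85, 3.25 and 6.18 CPM in Shell and 0.324, 1.51 and 2.25 CPM in Core (1.25 ± 0.26), and both genes passed in all 6 fits. The choline transporter Slc5a7 was at 0.54 ± 0.13, the vesicular acetylcholine transporter Slc18a3 at 0.78 ± 0.20 and Chat, the enzyme that makes acetylcholine, at 0.58 ± 0.17. With the pairs as a block these 3 had adjusted p = 0.0688, 0.0939 and 0.0659 (edgeR), and Chat stood at 0.22 with background as a covariate (adjusted p = 0.186, edgeR). Chat passed in 8 of the 23 fits that each left out 1 library.

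Of 12 genes of GABAergic interneurons 2 were higher and 1 lower. Calb2, which encodes calretinin, had 11.2, 15.2 and 23.2 CPM in Shell and 4.97, 7.84 and 16.2 CPM in Core (0.86 ± 0.17), and the transcription factor Lhx6 was at 0.80 ± 0.19. Both were past the threshold in the fits with pairs and with background, but not in the shared background range (adjusted p = 0.089 for Calb2 and 0.088 for Lhx6, edgeR). Npy, the neuropeptide Y precursor, was at -0.78 ± 0.23, and missed the threshold with the pairs as a block (adjusted p = 0.0519, edgeR).

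Of 16 neuropeptide precursors 2 passed as higher, Nmb and Nts, and 2 as lower, Penk and Npy (median 0.33). Nmb, which encodes neuromedin B, had 3.70, 4.65 and 8.61 CPM in Shell and 1.28, 2.14 and 3.14 CPM in Core, without overlap. The lowest Shell library was 12-F, whose background was highest, and Nmb was 2.3-fold higher in Shell (1.20 ± 0.16, adjusted p = 8.36e-05, edgeR). Nts, which encodes neurotensin, a peptide that modulates dopamine signalling, had 7.91, 20.4 and 35.1 CPM in Shell and 4.50, 9.64 and 18.6 CPM in Core. The ranges overlapped, the lowest libraries being 12-F in Shell and 23-F in Core, both of high background, and Nts was higher in Shell in 11 of 11 pairs (1.11 ± 0.25, adjusted p = 0.00913, edgeR). With background as a covariate the difference was 1.66 for Nts and 1.10 for Nmb, and both genes passed in all 6 fits.

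The 250 bases before the start of both peptide genes are shown because they are the peptides that were higher. Capitals mark the cyclic AMP half-site (TGACG) and the AP-1 motif (TGANTCA), each on either strand. Nmb lies at chr1:144281423-144281672, minus strand, and Nts at chr7:39460889-39461138, minus strand, both on GRCr8 from RefSeq.
Nmb: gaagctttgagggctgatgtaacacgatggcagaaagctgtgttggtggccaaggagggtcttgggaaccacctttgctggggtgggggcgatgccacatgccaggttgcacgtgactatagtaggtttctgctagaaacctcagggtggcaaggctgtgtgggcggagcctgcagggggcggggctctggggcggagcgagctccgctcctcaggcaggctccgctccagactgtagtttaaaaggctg
Nts: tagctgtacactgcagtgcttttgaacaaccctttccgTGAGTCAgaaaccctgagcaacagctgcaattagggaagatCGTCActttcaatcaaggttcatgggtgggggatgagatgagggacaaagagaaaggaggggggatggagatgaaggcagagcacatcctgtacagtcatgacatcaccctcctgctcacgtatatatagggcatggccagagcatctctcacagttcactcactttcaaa
The Nts window held 1 half-site and 1 AP-1 motif, at 171 and 212 bases before the start, which do not overlap, and the Nmb window held 0 of each. Over all promoters of this length 18.2% held the half-site and 6.34% the AP-1 motif.

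Among receptors for dopamine, Drd3 alone passed of the 4 tested. Its levels were 24.5, 27.3 and 32.7 CPM in Shell and 9.90, 14.2 and 19.5 CPM in Core. The lowest Shell library, 2-F, lay above the highest Core library, 11-F. The difference was 0.95 ± 0.10, a 1.93-fold higher level in Shell (adjusted p = 9.02e-06, edgeR), and it passed in all 6 fits. It was 1.11 in libraries of low background (adjusted p = 0.00988, edgeR) and 0.58 in those of high background (adjusted p = 0.117, edgeR).

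Peptide receptors gave 6 higher and 2 lower of 27 (median 0.56). Besides Oprm1, the orexin receptor Hcrtr2 was higher at 0.97 ± 0.17, the neuropeptide Y receptor Npy1r at 0.51 ± 0.12 (adjusted p = 0.0657 with the pairs as a block, edgeR) and the galanin receptor Galr1 at 1.52 ± 0.45, with an expected background of 2.27 of 4.38 CPM in Shell and 0.61 of 1.1 CPM in Core. The melanocortin receptor Mc4r was lower at -0.82 ± 0.19 (adjusted p = 0.0695 with the pairs as a block, edgeR). Hcrtr2 had a median of 24.9 CPM in Shell and 12.1 CPM in Core, with an expected background of 16.9 and 4.55 CPM. With the pairs as a block 2 of the 27 passed as higher and 0 as lower. Of 8 endocannabinoid genes 1 passed, Faah, which breaks down anandamide, as lower (-0.63 ± 0.13).

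Of 13 serotonin receptors 1 was higher and 2 lower. Htr7 had 19.4, 26.5 and 38.2 CPM in Shell and 7.38, 12.0 and 27.2 CPM in Core (1.04 ± 0.20), where the expected background was 18.2 CPM in Shell and 4.88 CPM in Core. It stood at 0.65 with background as a covariate (adjusted p = 0.000882, edgeR). Htr1b, a receptor on axon terminals, was lower at -0.81 ± 0.19, and Htr1d at -0.39 ± 0.10 (adjusted p = 0.0819 with the pairs as a block, edgeR).

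Glutamate receptor genes gave 4 higher and 3 lower of 24 (median -0.29), and 8 higher and 2 lower with background as a covariate (median 0.24). After subtraction of the background 4 were higher and 3 lower. Grin3a, an NMDA receptor subunit that lowers calcium entry, had 66.6, 69.8 and 79.8 CPM in Shell and 39.3, 51.2 and 61.2 CPM in Core, without overlap (0.52 ± 0.07, adjusted p = 0.000117, edgeR), and passed in all 6 fits. The kainate receptor subunit Grik1 had 78.9, 94.5 and 120.2 CPM in Shell and 29.1, 47.2 and 73.8 CPM in Core, also without overlap (1.06 ± 0.13). Its expected background was 58.5 CPM in Shell and 15.7 CPM in Core, and it did not pass after subtraction (adjusted p = 0.184, edgeR). The NMDA receptor subunit Grin2d was at 0.67 ± 0.13 and the metabotropic receptor Grm8 at 0.74 ± 0.15, the second with an expected background of 135 of 181 CPM in Shell and 36.3 of 99.2 CPM in Core at the median.

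GABA receptor genes gave 3 higher and 1 lower of 16 (median -0.06), and 2 higher and 0 lower with the pairs as a block. With background as a covariate 9 were higher and 0 lower (median 0.34), and with pairs and covariate together 7 and 0. After subtraction of the background 1 was higher and 0 lower. Gabrq and Gabre, the theta and epsilon subunits of the GABA-A receptor, lie with Gabra3 in a cluster on the X chromosome and are typical of hypothalamic and monoaminergic neurons. Gabrq had 1.98, 2.76 and 6.14 CPM in Shell and 0.296, 0.963 and 2.20 CPM in Core (1.72 ± 0.33), and Gabre 2.39, 2.98 and 6.04 CPM in Shell and 0.301, 1.30 and 2.42 CPM in Core (1.54 ± 0.26). The expected background was 2.45 CPM for Gabrq and 2.73 CPM for Gabre in Shell, close to their median levels, and 0.657 and 0.734 CPM in Core. Both were higher in 11 of 11 pairs, and neither had enough counts to be tested after subtraction. Between the libraries of low background, Gabrq was at 3.30 and Gabre at 2.30 (adjusted p = 0.00702 and 0.00917, edgeR). Gabra3 was higher at 0.40 ± 0.10 and Gabrd, the subunit of receptors outside the synapse, lower at -0.55 ± 0.15, with adjusted p = 0.0738 and 0.064 with the pairs as a block (edgeR). After subtraction of a background of 37.4 CPM in Shell and 10.1 CPM in Core at the median, Gabra3 stood at -0.09.

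Of 13 acetylcholine receptors the muscarinic Chrm2 (0.72 ± 0.17) and Chrm3 (0.78 ± 0.20) were higher and Chrm5 lower (-0.39 ± 0.08). With the pairs as a block, and with background as a covariate, 2 of the 13 were higher and 1 lower. After subtraction of the background 1 was higher and 1 lower, and in the shared background range 0 passed. The expected background of Chrm5 was 7.64 of 10.1 CPM in Shell and 2.05 of 13.3 CPM in Core, that of Chrm2 was 19.5 of 28.8 CPM in Shell and 5.24 of 18.3 CPM in Core and that of Chrm3 was 67.4 of 100.4 CPM in Shell and 18.1 of 51.3 CPM in Core, at the median. Of 27 potassium channel genes 4 were higher and 3 lower (median -0.28). With the pairs as a block 2 were higher and 0 lower, and with background as a covariate 9 were higher and 0 lower (median 0.16). After subtraction of the background 7 were higher and 4 lower. Kcnk9, a leak channel, had 22.0, 26.5 and 48.0 CPM in Shell and 9.83, 13.2 and 26.4 CPM in Core (0.88 ± 0.13, adjusted p = 0.00021, edgeR), and Kcnc2, a channel of fast-spiking cells, was at 0.78 ± 0.14. Both passed in all 6 fits. The calcium-activated channel Kcnn2 (0.35 ± 0.08) and the fast channel Kcna4 (-0.88 ± 0.20) missed the threshold with the pairs as a block (adjusted p = 0.0709 and 0.0531, edgeR).

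Of 21 matrix genes 4 were lower and 1 higher (median -0.07). Adamts4, a protease of chondroitin sulfate proteoglycans that oligodendrocytes make, had 5.09, 6.73 and 9.58 CPM in Shell and 9.15, 21.2 and 31.0 CPM in Core (-1.59 ± 0.16, adjusted p = 7.97e-06, edgeR). Hapln2, a link protein of the nodes of myelinated axons, was at -1.64 ± 0.26, and both passed in all 6 fits. The proteoglycan Vcan (-0.50 ± 0.13) and the protease Adamts5 (0.95 ± 0.24) missed the threshold with the pairs as a block (adjusted p = 0.118 and 0.058, edgeR). The expected background of Adamts5 was 6.79 of 9.15 CPM in Shell and 1.83 of 3.62 CPM in Core. Of 14 retinoid genes 2 were higher and 0 lower (median 0.32), among them the nuclear receptor Rxrg at 0.38 ± 0.10 (adjusted p = 0.0878 with the pairs as a block, edgeR).

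**Figure D3:**
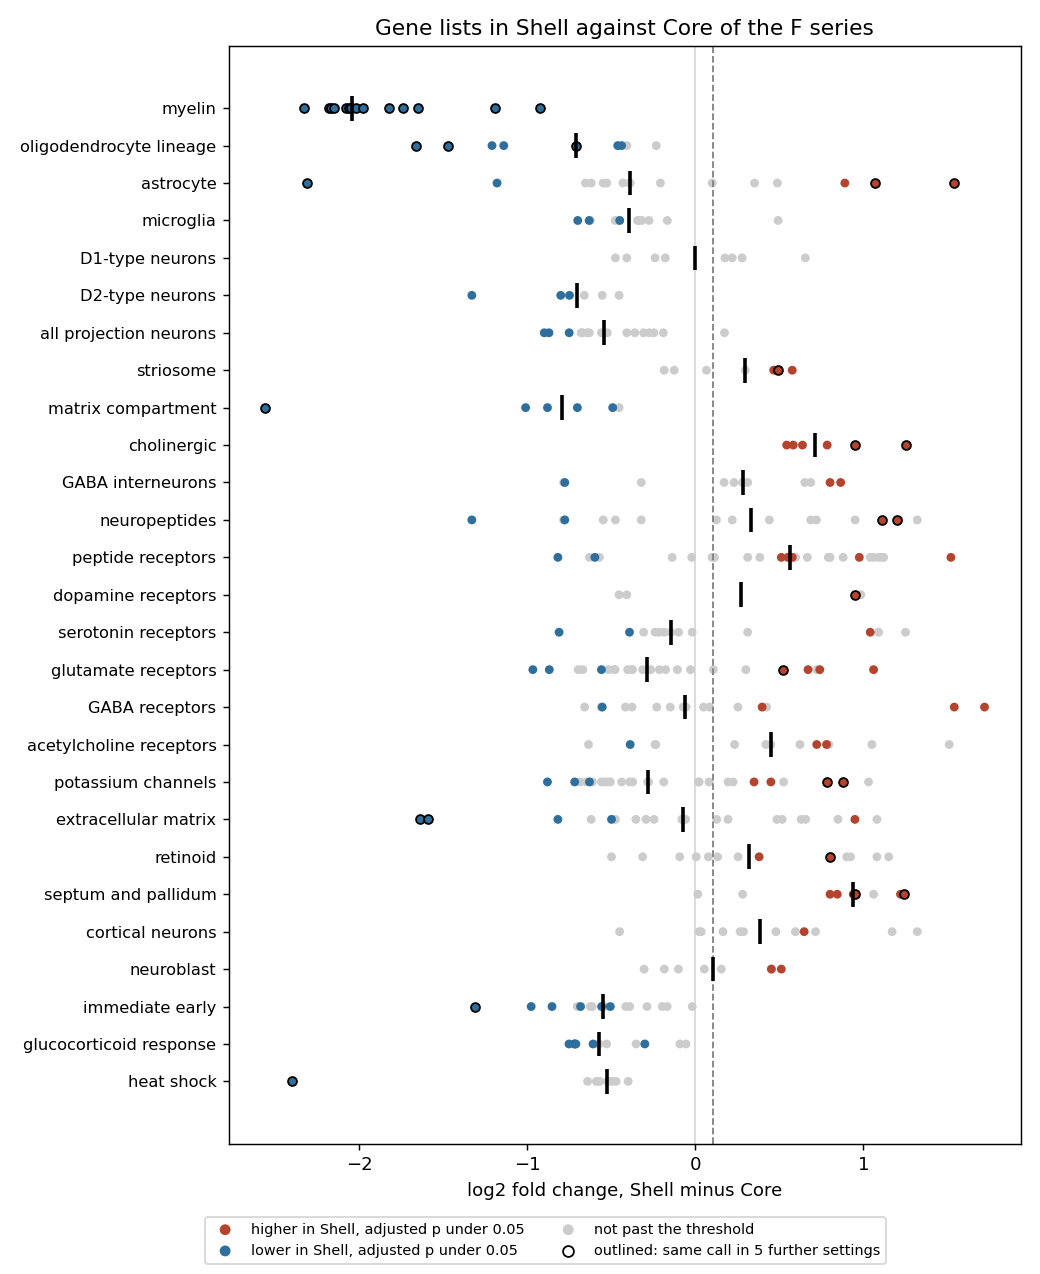
Log2 fold change (Shell minus Core) of each member of 27 gene lists, 1 row per list, with a black bar at the list's median, colour for genes past an adjusted p of 0.05 and an outline for those with the same call in 5 further fits. The dashed line is the median of all genes tested, 0.105. All genes of the myelin, oligodendrocyte lineage, D2-type, matrix compartment, immediate early, glucocorticoid response and heat shock lists lie left of 0. All genes of the cholinergic list and of the septum and pallidum list lie right of it, while the other lists spread over both sides.

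The 10 largest increases in Shell were led by Sirpd, of the signal regulatory protein family, at 2.33 ± 0.66 (adjusted p = 0.0368, edgeR). It had 0.772, 6.26 and 18.4 CPM in Shell and 0.074, 1.69 and 5.81 CPM in Core, was lower in Shell in 3 of 11 pairs, and had adjusted p = 0.13 with the pairs as a block (edgeR). Its expected background, 27.5 CPM in Shell and 7.4 CPM in Core, was above its measured level. It was also among the 200 genes whose levels moved most alike in the Core and Shell libraries of a pair in the numbered series. Irs4, an insulin receptor substrate typical of the hypothalamus, had 1.99, 3.43 and 13.4 CPM in Shell and 0.0753, 1.17 and 2.77 CPM in Core (2.01 ± 0.46), with an expected background of 2.33 CPM in Shell and 0.626 CPM in Core. Gpr165, an orphan receptor, had 4.17, 8.31 and 22.7 CPM in Shell and 1.10, 3.39 and 5.64 CPM in Core (1.57 ± 0.31, adjusted p = 0.0033, edgeR), and its expected background was only 0.844 CPM in Shell. It passed in all 6 fits, as did Ctxn3, a small membrane protein of neurons (1.59 ± 0.25), and Kcnj16. Sertm2, a small membrane protein, was at 1.84 ± 0.32, with an expected background of 1.75 of 2.83 CPM in Shell and 0.471 of 0.704 CPM in Core. Stac, an adaptor of calcium channels, was at 1.63 ± 0.36, with an expected background of 17.8 of 39.5 CPM in Shell and 4.8 of 9.5 CPM in Core. Galr1 missed the threshold with the pairs as a block and with background as a covariate (adjusted p = 0.0897 and 0.0847, edgeR).

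Among markers of neighbouring tissue, those of septum and pallidum were higher in Shell in part. Of 9 genes of septum and pallidum 6 were higher in Shell and 0 lower (median 0.94), and 5 passed as higher with the pairs as a block and 2 in the shared background range. Their summed level ran from 88.0 to 177 CPM in Shell, with a median of 124, and from 23.8 to 147 CPM in Core, with a median of 46.8, and 0 of the 9 were without counts. Zic4 (1.24 ± 0.22), Trpc4 (0.94 ± 0.20) and Zic1 (0.84 ± 0.18) were 3 of them, and Lhx8 and Lhx6 are both on this list and among the interneuron genes, so the cholinergic result shares a gene with it. The expected background of Trpc4 was 24.7 of 38.3 CPM in Shell and 6.63 of 18.2 CPM in Core. The part of neighbouring tissue in the other results was not tested.

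Of 12 genes of cortical and claustral neurons 1 was higher, Cux2 (0.65 ± 0.13), and the summed level was 120.1 to 385 CPM in Shell and 67.2 to 337 CPM in Core. Neuroblast genes gave 2 higher of 8, Dcx, a microtubule protein of migrating neurons (0.51 ± 0.10), and Igfbpl1 (0.45 ± 0.12; adjusted p = 0.125 with the pairs as a block, edgeR). Mural, fibroblast and meningeal genes gave 1 higher of 13, Col1a2 (0.69 ± 0.19), and 1 lower, Ptgds, which makes prostaglandin D2 in meninges and oligodendrocytes (-1.11 ± 0.26), with adjusted p = 0.0789 and 0.07 with the pairs as a block (edgeR). The highest level of both genes in Shell, 38.9 CPM for Col1a2 and 81.6 CPM for Ptgds, came from 12-F. Endothelial genes (10 tested) and choroid plexus and ependymal genes (9 tested) had 0 called.

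Genes that follow activity and stress were lower in Shell in part. Of 16 immediate early genes 6 passed as lower and 0 as higher (median -0.55), but 1 passed with the pairs as a block and 1 with background as a covariate. That gene was Egr3, a transcription factor induced by neuronal activity, with 7.96, 19.9 and 38.5 CPM in Shell and 22.2, 54.6 and 70.9 CPM in Core (-1.31 ± 0.23, adjusted p = 0.00118, edgeR). It was lower in 11 of 11 pairs and passed in all 6 fits. Egr4 (-0.98 ± 0.25), Homer1 (-0.85 ± 0.22) and Fosb (-0.51 ± 0.14) had adjusted p = 0.068, 0.0953 and 0.0939 with the pairs as a block (edgeR).

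Of 12 glucocorticoid response genes 6 passed as lower (median -0.58) and 0 with the pairs as a block. The kinase Sgk1 was at -0.71 ± 0.16, Tsc22d3, the glucocorticoid-induced leucine zipper, at -0.72 ± 0.17, the metallothionein Mt1 at -0.72 ± 0.17 and the chaperone Fkbp5 at -0.30 ± 0.07. Their adjusted p with the pairs as a block was 0.0555, 0.0638, 0.0709 and 0.058 (edgeR). Of 14 cholesterol synthesis genes 2 were lower, Msmo1 (-0.65 ± 0.17) and Hmgcs1 (-0.72 ± 0.22), with adjusted p = 0.104 and 0.135 with the pairs as a block (edgeR). With background as a covariate the medians of the immediate early, glucocorticoid and cholesterol lists were -0.03, -0.22 and 0.05. After subtraction of the background 3, 5 and 2 of their genes were lower, and 1 immediate early gene was higher. With condition and drug as covariates the medians of these lists were -0.55, -0.58 and -0.44, nearer to 0 than that of the ribosomal protein genes, -0.65. The part of background in these lists was not tested beyond the fits given.

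**Figure D4:**
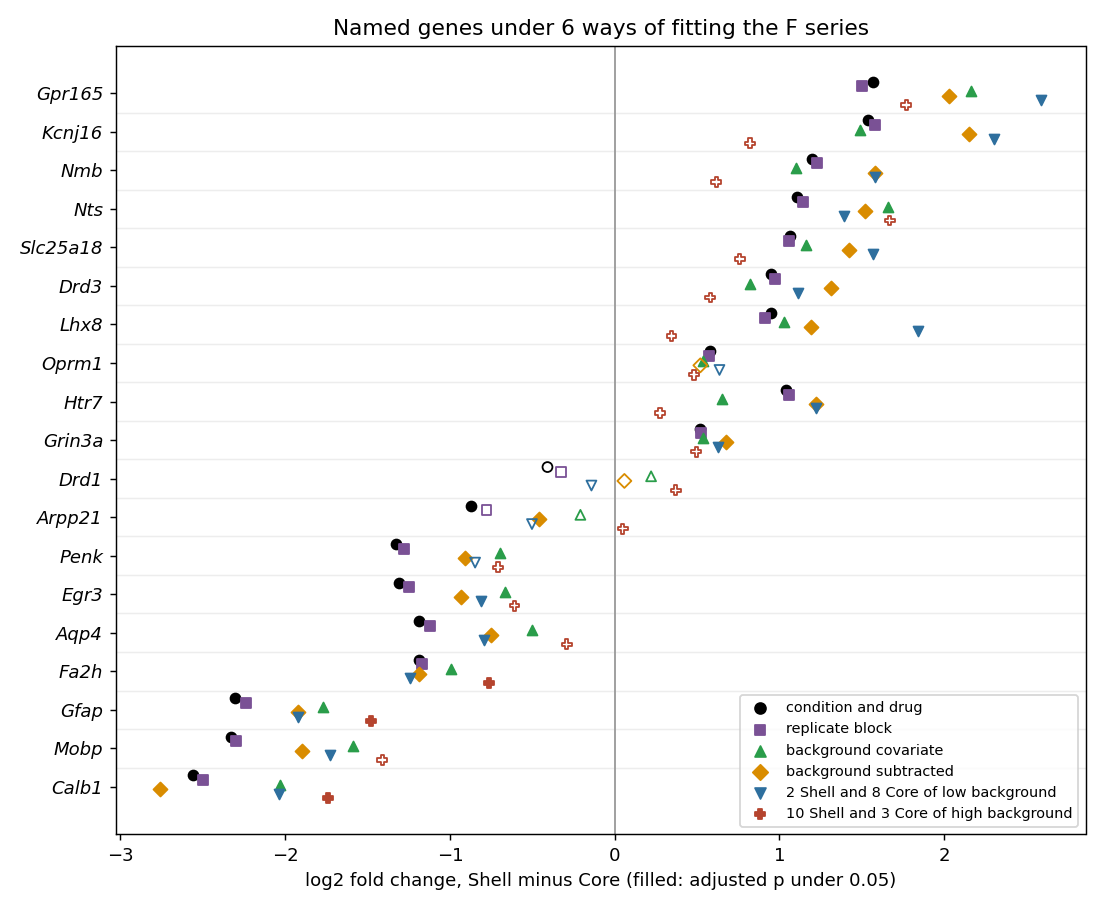
Log2 fold change (Shell minus Core) of 19 genes, 1 row each, with condition and drug as covariates, with the pairs as a block, with background as a covariate, with background subtracted, and between the libraries of low or of high background alone, filled where adjusted p was under 0.05. Calb1, Mobp, Gfap and Fa2h lie left of 0 and Gpr165, Kcnj16, Nmb, Nts, Slc25a18 and Drd3 right of it throughout, whereas Drd1 and Arpp21 lie on both sides, and most values of the 10 Shell and 3 Core libraries of high background are not past the threshold.

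The subregion difference was also compared between drugs and between conditions. No gene passed for subregion by drug (edgeR, 0 of 27899; lowest adjusted p 0.148; DESeq2 also 0) or for subregion by condition (0 of 27899; lowest adjusted p 0.998; DESeq2 also 0). In simulated data, the subregion by drug test recovered 0 of 67 genes set to differ by 0.5 (log2). It recovered 7 of 71 at 1 and 35 of 62 at 2. The simulated libraries had no pairs and no background that differed between libraries. Differences of these sizes were thus missed even in that simpler setting, and the share missed in the real libraries is not known. At an unadjusted p under 0.05 there were 8691 genes (31.2%) for drug and 44 (0.158%) for condition. The first count was 2305 with background as a covariate and 1129 (4.05%) with the pairs as a block, and the part of background, whose median differed between Coc and Sal in Core, was not tested beyond these fits. The mean Shell minus Core difference of a pair (log2 CPM) for Calb1 was -2.87 in Coc and -2.16 in Sal pairs, for Mobp -2.57 in Coc and -2.03 in Sal pairs, and for Gfap -2.64 in Coc and -1.88 in Sal pairs. For Drd3 it was 0.98 in Coc and 0.96 in Sal pairs, and for Nmb 1.35 in Coc and 1.07 in Sal pairs. Across conditions Mobp was at -2.49 in Ext, -2.23 in Ctx and -2.10 in HC pairs, and Drd3 at 0.97 in Ext, 1.01 in Ctx and 0.93 in HC pairs. These differences between drugs and conditions did not pass for any of these genes (lowest adjusted p = 0.162, for Gfap by drug, edgeR).

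In the numbered series, 30 Shell libraries and 30 Core libraries bear different series numbers in their titles, so subregion and series cannot be told apart there. What a series stands for is not in the labels. Of 29476 genes tested 954 were higher in Shell (3.24%) and 2348 lower (7.97%), 11.2% in all. Of the 587 genes higher in the F series, 363 were also called higher there (61.8%, or 38.1% of the numbered series' higher calls). Of the 1387 lower, 1152 were also called lower (83.1%, or 49.1% of its lower calls), and 0 genes were called in opposite directions. Among the genes that passed in all 6 fits of the F series, 73 of 74 higher and 266 of 268 lower genes were called the same way. For the genes called higher in the F series the median difference was 0.69 in the F series and 0.27 in the numbered series, and for those called lower it was -0.68 in the F series and -0.36 in the numbered series. These genes were selected on their calls in the F series, and no test was made of the difference between the series.

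For single genes, the numbered series gave -1.90 ± 0.14 (SE) for Mobp, -1.51 ± 0.16 for Calb1, -1.39 ± 0.18 for Gfap, 1.04 ± 0.09 for Nmb, 1.05 ± 0.14 for Nts, 0.58 ± 0.06 for Drd3 and 0.37 ± 0.04 for Oprm1, each past the threshold (edgeR). Gpr165 was at 1.36 ± 0.18 and Kcnj16 at 0.85 ± 0.11, also past. Sirpd was at 0.05 ± 0.37 (adjusted p = 0.955), Sv2b at 0.01 ± 0.12 (adjusted p = 0.984) and Galr1 at 0.22 ± 0.12 (adjusted p = 0.241, edgeR), and these 3 calls of the F series did not pass there.

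**Figure D5:**
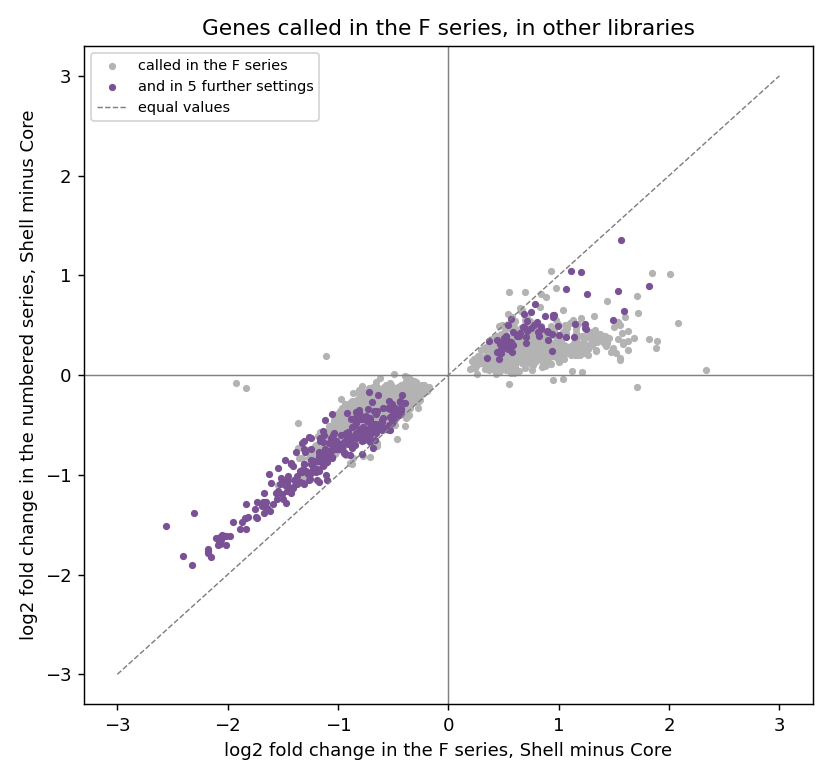
Log2 fold change (Shell minus Core) of the genes called in the F series (horizontal axis) and in the numbered series (vertical axis), with genes that passed in all 6 fits of the F series in purple. Nearly all points lie in the lower left or upper right, and most lie nearer to 0 on the vertical axis than the dashed line of equal values.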

How the data were processed

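Gene counts, deposited by the authors as whole numbers, were made with featureCounts on mRatBN7.2, per the submitters' processing notes. A deposited FPKM table, made by the authors from the same libraries, served only to derive gene lengths, from counts and FPKM. Per the labels' protocols, purification used Direct-zol and library preparation the SMARTer Stranded Total RNA-seq v3 Pico kit. How reads were aligned, with which annotation release, and whether strand or molecular identifiers were used in counting is not given in these sources. Of 41919 genes, those kept by filterByExpr were tested with edgeR 4.0.16 in R 4.3.3 after TMM scaling (quasi-likelihood test, Benjamini-Hochberg adjustment), with condition and drug as covariates. DESeq2 1.42.0 was an alternative. SE is the log2 fold change divided by the square root of F. CPM are per library, and log2 CPM used a prior count of 2. Scripts were tested on simulated data.

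Background was the summed count of olfactory and vomeronasal receptor genes per base, spread over all genes, and the subtracted counts took this rate times each gene's length. Consecutive library numbers (1-F with 2-F and so on) were taken as pairs. Over the 200 genes most alike within pairs of the numbered series, the residuals of paired libraries correlated by 0.1 to 0.654 (median 0.506, 11 of 11 pairs), against a median of -0.0625 for other partners. In 9 of 11 pairs the own partner correlated best. Over 400 genes the lowest was -0.0472 and 10 of 11 pairs were over 0.1. The pairing is thus read from the numbers and these correlations, not stated in the labels.

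Named genes were the 10 largest changes in each direction past an adjusted p of 0.05 that have a gene symbol and reach 1 in mean log2 CPM, up to 4 genes of lowest p in each of 32 lists, and Drd1, Drd2 and Chat. Some genes that meet this rule are not reported here. Members and lists were chosen with earlier results of these data known. Promoters are those of RefSeq on GRCr8. No sample column was left unused (0), and no libraries were identical (0 pairs).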

Additional observations from a re-analysis of the deposited data

How the results depend on the processing

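Calls in the F series numbered 9664 by DESeq2 (5971 higher, 3693 lower in Shell), 760 with the replicate block, that is with the library number pairs as a block (237 and 523), 477 with Core 17-F (141 and 336) and 426 in the shared background range (124 and 302). Higher calls were 1809 and lower calls 895 with background as a covariate, lower calls were 616 with block and covariate together and 877 with no filter on low counts, and higher calls were 391 with 6 cells of condition by drug. Splits chosen after seeing the data gave 14 calls in libraries of high background (9 and 5) and 527 in those of low background (239 and 288), where fewer libraries enter. Leaving out 1 library gave 1120 to 13096 calls, with 309 to 7670 higher and 763 to 6060 lower. Of 100 named genes, 20 missed the threshold without at least 1 library. Over the 23 such fits, Ppp1r1b, Galr1 and Hmgcs1 passed in 5, Npy in 7, and Chat, C1qa and Gda in 8. Sirpd passed in 10. The higher share of calls was 29.7%, but 66.9% with the covariate, 61.8% by DESeq2 and 58.4% with block and covariate. In the numbered series the covariate gave 13142 calls (7385 and 5757), and its block 1547 higher. The cause of these shifts was not tested.

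The sign turned for Drd1 (0.221 with the covariate, 0.059 after subtraction, 0.196 with block and covariate), Drd2 (0.159 with the covariate, 0.0679 with block and covariate) and Gabra3 (-0.0946 after subtraction). In libraries of high background it turned for Galr1 (-0.0926), Drd1 (0.37), Drd2 (0.398), Arpp21 (0.0486), Pde7b (0.17), Kcnip1 (-0.038), Gda (0.0279), Chat (-0.169), Vcan (0.0168), Homer1 (0.201), Msmo1 (0.0694) and Hmgcs1 (0.182), and in those of low background for Sirpd (-1.03). None of the turned values passed (lowest adjusted p = 0.227, for Drd1 with the covariate, edgeR). The SE was 0.887 for Gabra3, 0.911 for Sirpd, and 0.113 (Kcnip1) to 0.28 (Drd2) in libraries of high background. Among 98 called named genes, 37 did not pass with the pairs as a block, 30 with background as a covariate and 54 in the shared background range, which has fewer libraries. Subregion by drug and by condition gave 0 calls in every setting run. Total counts had a median of 17.05 M in Shell and 18.7 M in Core, and the part of depth was not tested.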
